A study of Mus musculus with 16 samples.

Results

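The 9 genes described here, *Col7a1*, *Col17a1*, *Lama3*, *Lamb3*, *Itga6*, *Itgb4*, *Dst*, *Plec* and *Cd151*, encode the hemidesmosome and the basement membrane proteins it is tied to. They were taken by name, as the rows of 16 gene count tables whose Ensembl identifiers carry these symbols in the GENCODE annotation of the mouse genome build GRCm39. All 9 were found among 55359 listed genes, and all 9 had enough reads to be tested, with 858 to 34299 reads per gene and library.

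The tables hold poly(A) RNA of whole dorsal skin from wild-type C57Bl/6 mice (substrain C57Bl/6N in the study's text) at 8 weeks of age, with hair follicles at rest (telogen). The groups were 4 males and 4 females irradiated with UVB, and 4 males and 4 females without UVB. Irradiated skin had received 3 exposures and was collected on day 5, once 6 h had passed since the final exposure. The study asked how males and females differ in their response to UVB, and the same question is put here to the adhesion genes of the epidermis. Replicates are numbered in the labels without a word on whether each came from its own animal. Each library is called a mouse below, and p-values measure the spread between these libraries.

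Hemidesmosomes rivet basal keratinocytes, the dividing layer of the epidermis, to the basement membrane beneath them. Inside the cell, plectin and the epithelial isoform of dystonin bind keratin filaments of the basal layer. At the membrane, integrin α6β4, type XVII collagen and the tetraspanin CD151 join these plaque proteins to laminin outside the cell, and type VII collagen forms the anchoring fibrils that hold the basement membrane to the dermis. Inherited defects in several of these genes cause the blistering skin disease epidermolysis bullosa.

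Each library had 16495776 to 33404831 reads on genes (median 21767339), with a root mean square deviation from the group mean of 0.220 to 0.292 on the log2 scale. The library of UVB female 2 was set apart from those of UVB females 3 and 4, with a chi-square per degree of freedom over genes of 108.8 and 88.9, against 16.4 between the latter pair (a measure that also grows with depth). To UVB female 1 its value was 36.7, beside 43.65 between UVB females 1 and 3 and 66.6 between no-UVB females 1 and 4. Its deviation from the group mean, 0.278, was not the largest. UVB female 2 had the lowest share of reads on genes (70.1%) and the highest unmapped share (16.4%) of the 16, and the lowest levels of 6 of the 9 genes, *Col17a1*, *Lama3*, *Lamb3*, *Itga6*, *Itgb4* and *Dst*. The UVB responses of the 9 genes in females are also given without it, and the part of its read shares in those levels was not tested. Levels are given as CPM (counts relative to the library total), scaled between libraries by the trimmed mean of M-values (TMM). Whole skin also held other cell types. The 6 skeletal muscle markers summed to 12019 to 22592 CPM over the 16 mice, and the 4 basal keratinocyte markers (*Krt5*, *Krt14*, *Krt15* and *Trp63*) to 3943 to 10590 CPM, which places basal keratinocytes among the cells sampled. In bulk tissue, fewer cells of a type and less RNA per cell cannot be told apart.

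Upstream sequences are shown for 4 of the genes, *Col17a1* and *Lamb3* since their levels followed each other most closely over the mice, *Col7a1* since it was lower after UVB in both sexes, and *Cd151* since its levels followed those of the other genes least. Each is the 250 bases before the first start listed in RefSeq (build GRCm38.p6), read 5′ to 3′ along the gene, with every match to the GC box GGGCGG (either strand) in capitals. *Col17a1* lies at chr19:47692043-47692292, minus strand, *Lamb3* at chr1:193301744-193301993, plus strand, *Col7a1* at chr9:108953336-108953585, plus strand and *Cd151* at chr7:141467112-141467361, plus strand. A second start is listed for *Lamb3* and for *Cd151*, and which start these libraries used was not tested.
Col17a1: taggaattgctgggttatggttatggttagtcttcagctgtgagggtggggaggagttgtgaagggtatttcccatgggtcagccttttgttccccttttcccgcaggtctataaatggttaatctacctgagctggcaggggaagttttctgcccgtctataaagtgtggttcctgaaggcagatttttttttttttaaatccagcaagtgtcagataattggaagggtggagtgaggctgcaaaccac
Lamb3: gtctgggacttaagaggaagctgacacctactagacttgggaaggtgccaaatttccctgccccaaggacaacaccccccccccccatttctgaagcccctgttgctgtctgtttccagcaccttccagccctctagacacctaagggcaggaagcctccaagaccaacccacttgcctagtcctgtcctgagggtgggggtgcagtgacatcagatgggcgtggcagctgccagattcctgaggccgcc
Col7a1: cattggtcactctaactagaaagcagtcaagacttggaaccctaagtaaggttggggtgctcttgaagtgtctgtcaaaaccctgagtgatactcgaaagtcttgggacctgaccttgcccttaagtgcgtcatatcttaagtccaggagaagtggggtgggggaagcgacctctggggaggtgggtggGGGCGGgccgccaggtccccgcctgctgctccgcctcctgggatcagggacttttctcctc
Cd151: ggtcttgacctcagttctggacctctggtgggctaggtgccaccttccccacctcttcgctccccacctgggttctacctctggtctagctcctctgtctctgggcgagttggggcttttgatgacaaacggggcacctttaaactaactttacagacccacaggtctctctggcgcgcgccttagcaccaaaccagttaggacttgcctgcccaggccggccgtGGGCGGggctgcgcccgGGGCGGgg

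*Col17a1* held no GC box but 2 matches to the TATA box TATAAA, starting 140 and 91 bases before the start, while *Lamb3* held neither motif. *Col7a1* held 1 GC box, 61 bases before its start, and *Cd151* held 2, at 25 and 8 bases. The AP-1 motif TGANTCA was absent from all 4 windows, and CCAAT was found in *Col7a1* and *Col17a1*. Of the 32851 starts in the table, 32.7% had a GC box in the same window, 12.4% a TATA box, 6.75% an AP-1 motif and 33.8% a CCAAT box, searched on both strands and with overlap allowed. A match describes letters and is no evidence of binding. In all, 5 of the 9 genes had an entry, and *Lama3*, *Itga6*, *Itgb4* and *Plec* had none.

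Compared per kilobase of the annotated main (canonical) transcript, *Col17a1* stood far above the other genes. In no-UVB males its level was 179 ± 22.2 CPM per kb (mean ± SD, n = 4). *Plec*, *Dst*, *Itga6* and *Cd151* followed at 52.5 ± 4.10, 50.4 ± 5.27, 45.5 ± 3.80 and 41.1 ± 3.65 CPM per kb, each within the summed SDs of the next. *Itgb4* was at 34.9 ± 3.44 CPM per kb, also within the summed SDs of *Cd151*. *Lamb3*, *Col7a1* and *Lama3* were lowest, at 18.0 ± 0.953, 13.9 ± 1.63 and 5.26 ± 0.372 CPM per kb, steps that exceeded the summed SDs. With the length of all annotated exons *Col7a1* (12.5 CPM per kb) and *Lamb3* (12.2) were in the other order. By that length, *Col17a1* (167 CPM per kb) and *Plec* (43.4) remained at the top and *Lama3* (4.99) at the bottom, but *Itga6* was then at 17.6 CPM per kb, below *Itgb4* at 30.1. *Dst* and *Plec* have 22 annotated transcripts each, and gene counts do not separate the epithelial isoforms from those of muscle and nerve.

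In males, the hemidesmosomal integrin rose after UVB while the anchoring fibril collagen *Col7a1*, the plaque gene *Dst* and the tetraspanin gene *Cd151* fell. In females, *Col7a1* and the laminin chain *Lama3* fell and no gene of the 9 rose. A gene was called at an adjusted p under 0.1 by the quasi-likelihood test of edgeR, adjusted by Benjamini-Hochberg over all genes tested. By this measure 2 of the 9 genes were higher and 3 lower in UVB males, where 59.6% of all 16535 genes tested were called, 29% higher and 30.5% lower. In UVB females 0 were higher and 2 lower, where 23.4% of 16883 genes were called, 12.8% higher and 10.6% lower. The count of the 9 in males (5) was thus near the share of all genes, as was that in females (2). The call of *Dst* in males held in 3 of 8 fits with 1 mouse left out. None of the 9 was called for a difference between the responses of the sexes. No gene of the 9 passed a log2 fold change of 1, which 7.39% of all genes did in males and 2.71% in females. Over the 9 genes, log2 fold changes had a median of -0.12 for males and -0.26 for females, against -0.02 and 0.00 over all genes tested. Under upper quartile scaling, 6 of the 9 genes were lower in males, and the calls of all genes shifted from 4802 higher and 5051 lower to 3880 and 6130.

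**Figure D1:**
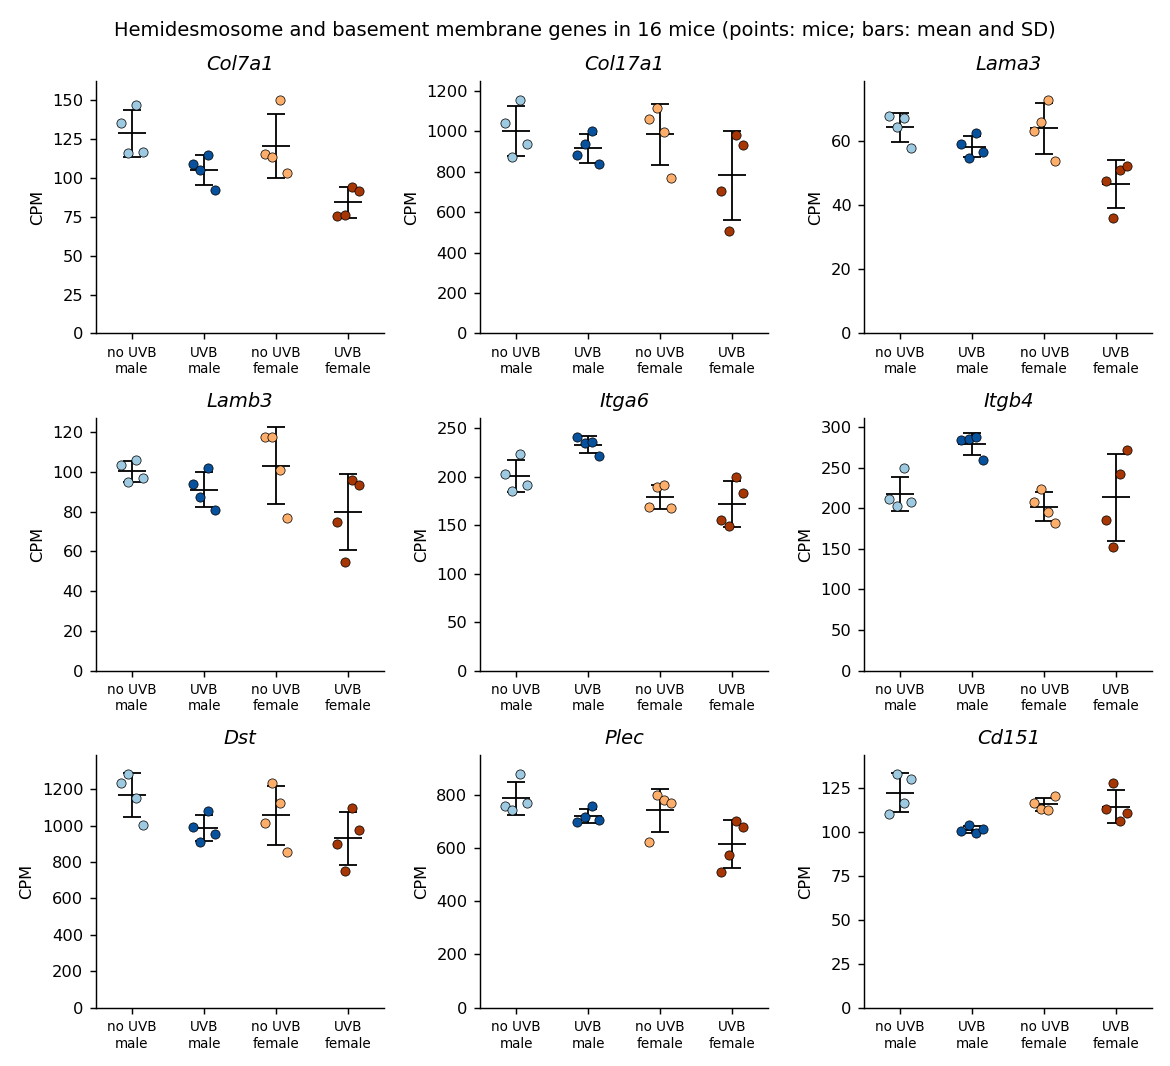
Level in CPM (linear axis from 0) of each of the 9 genes in every mouse, by group, with the mean and SD of 4 mice as bars. The points of UVB and no-UVB mice are apart for *Col7a1* in both sexes, for *Itgb4* and *Cd151* in males and for *Lama3* in females.

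*Col7a1* (chr9:108782647-108813943, plus strand), which encodes the collagen of the anchoring fibrils, was the gene lower in both sexes. In males it was at 135, 116, 147 and 117 CPM without UVB and 109, 105, 115 and 92.1 CPM after UVB. In females it was at 116, 114, 150.4 and 103 CPM without UVB and 75.3, 76.4, 94.3 and 91.8 CPM after UVB. Every UVB mouse lay below every no-UVB mouse of its sex. The log2 fold change was -0.27 ± 0.09 (SE, n = 4 against 4) in males (edgeR adjusted p = 0.0303). In females it was -0.51 ± 0.12, 0.703 times the level without UVB (edgeR adjusted p = 0.0202), and -0.47 without UVB female 2 (0.0472). Such separation of the groups was seen for 3 of the 9 genes in males and 2 in females, beside 47.1% and 21.2% of all genes tested. Leaving out each mouse in turn kept both calls, with an adjusted p of up to 0.0995 in males (without no-UVB male 3) and 0.0649 in females.

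*Col17a1* (chr19:47634783-47680533, minus strand) encodes the transmembrane collagen of the hemidesmosome. Its levels in males were 1043, 874, 1156 and 937 CPM without UVB and 885, 939.8, 1002 and 837 CPM after UVB, and the groups overlapped. In females they were 1059, 1114, 999 and 768 CPM without UVB and 706, 507, 981 and 935 CPM after UVB. UVB females 1 and 2 lay below all 4 no-UVB females, whereas UVB females 3 and 4 lay within their range. The log2 fold change of -0.11 ± 0.10 in males (adjusted p = 0.389) and of -0.33 ± 0.20 in females (adjusted p = 0.313) did not pass edgeR's test, with 95% confidence intervals of -0.33 to 0.11 and -0.78 to 0.12. Without UVB female 2 the female value was -0.17 (adjusted p = 0.524), and without each mouse in turn it ranged over -0.45 to -0.17 in females and -0.16 to -0.02 in males, nearest to 0 there without no-UVB male 3.

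*Lama3* (chr18:12466876-12717747, plus strand) and *Lamb3* (chr1:192890007-193027705, plus strand) encode the α and β chains of the laminin to which integrin α6β4 binds. *Lama3* was at 67.9, 64.2, 67.1 and 57.9 CPM without UVB and 59.1, 54.7, 62.4 and 56.6 CPM after UVB in males. Females were at 63.0, 66.0, 72.8 and 53.7 CPM without UVB and 47.6, 35.8, 51.0 and 52.0 CPM after UVB. The groups overlapped in males and were apart in females. The log2 fold change of *Lama3* was -0.45 ± 0.13 in females (edgeR adjusted p = 0.0389), called without each mouse in turn, with -0.34 (0.0484) without UVB female 2. In males it was -0.12 ± 0.07 (adjusted p = 0.157), and it was called there without UVB male 3 (adjusted p = 0.0985), without no-UVB male 4 (0.0495) and with upper quartile scaling (0.0296). *Lamb3* was at 103, 94.7, 106 and 97.0 CPM without UVB and 93.7, 87.5, 102 and 81.1 CPM after UVB in males. Its levels in females were 118, 117, 101 and 76.8 CPM without UVB and 75, 54.8, 96.0 and 93.3 CPM after UVB. The groups overlapped in both sexes, and UVB female 2 was the lowest of all 16 mice for both chains. For *Lamb3* the log2 fold change was -0.12 ± 0.08 in males (adjusted p = 0.217) and -0.37 ± 0.19 in females (adjusted p = 0.221), neither past edgeR's test, though *Lamb3* was called in males without UVB male 3 (adjusted p = 0.0654) and with upper quartile scaling (0.0462), and in females with all 16 mice in a single fit (0.0997). Without UVB female 2 the female value of *Lamb3* was -0.22 (adjusted p = 0.359).

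*Itga6* (chr2:71575960-71689757, plus strand) and *Itgb4* (chr11:115865333-115899239, plus strand) encode both chains of the laminin receptor of hemidesmosomes, integrin α6β4. *Itgb4* was at 211, 203, 249 and 207 CPM without UVB and 285, 285, 288 and 259 CPM after UVB in males. In females the levels were 208, 223, 196 and 181 CPM without UVB and 186, 153, 243 and 272 CPM after UVB. All UVB males lay above all no-UVB males, while UVB females spread to both sides of the no-UVB females. The rise of *Itgb4* in males had a log2 fold change of 0.38 ± 0.08, or 1.3-fold (edgeR adjusted p = 0.00159), and it was called without each mouse in turn. In females the value was 0.09 ± 0.16 (adjusted p = 0.766, 95% confidence interval -0.27 to 0.44), and it was 0.21 without UVB female 2 (adjusted p = 0.298).

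*Itga6* was at 203, 185, 224 and 192 CPM without UVB and 241, 235, 236 and 221 CPM after UVB in males. In females it was at 169, 189, 192 and 168 CPM without UVB and 155, 149, 199.7 and 183 CPM after UVB. Of the UVB males, 3 lay above every no-UVB male and UVB male 4 just below no-UVB male 3. For *Itga6* the log2 fold change was 0.24 ± 0.07 in males, or 1.18-fold (edgeR adjusted p = 0.0132), called without each mouse in turn. In females it was -0.06 ± 0.10 (adjusted p = 0.758), and 0.0024 without UVB female 2. *Itga6* also pairs with the β1 integrin chain outside hemidesmosomes, and gene counts cannot separate the partners.

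*Dst* (chr1:33946918-34347742, plus strand) and *Plec* (chr15:76055174-76116774, minus strand) encode the plaque proteins dystonin and plectin, which bind keratin filaments. *Dst* was at 1234, 1283, 1153 and 1003 CPM without UVB and 995, 911, 1078 and 953 CPM after UVB in males. Females were at 1012, 1233, 1123 and 853 CPM without UVB and 899, 751, 1099 and 976 CPM after UVB. The groups overlapped in both sexes. In males *Dst* fell by 0.23 ± 0.09 in log2 terms (edgeR adjusted p = 0.0648). This call was lost when UVB male 1, 2 or 4 or no-UVB male 1 or 2 was left out (adjusted p of 0.111 to 0.183) and when all 16 mice were fitted together (0.119). In females the value was -0.17 ± 0.15 (adjusted p = 0.473), and -0.087 without UVB female 2.

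*Plec* was at 759, 742, 878 and 770.3 CPM without UVB and 697, 718, 758 and 704 CPM after UVB in males. Its levels in females were 621, 797, 781 and 767 CPM without UVB and 510.0, 572, 699.6 and 680.2 CPM after UVB. The groups overlapped in both sexes. The log2 fold changes of *Plec*, -0.11 ± 0.08 in males (adjusted p = 0.255) and -0.26 ± 0.13 in females (adjusted p = 0.209), did not pass edgeR's test. Without UVB female 2 the female value was -0.23. *Plec* was called in males with upper quartile scaling (adjusted p = 0.0592) and in females with all 16 mice in a single fit (0.0806). *Plec* shares exon bases with *Parp10* on the same strand. Both plaque genes are also expressed in muscle, and 5 of 6 skeletal muscle markers were lower in UVB males, with their sum at 18142 to 22592 CPM without UVB and 13163 to 16205 CPM after UVB. In females 0 of the 6 were called, at 12019 to 17366 CPM without UVB and 12886 to 18737 CPM after UVB. No marker of the 6 had 3 counts or fewer throughout a group. Of 5 Schwann cell markers, of interest since *Dst* is also expressed in nerve, 5 were lower in UVB males (sums of 334 to 474 CPM without UVB and 233 to 316 CPM after UVB) and 0 were called in females (282 to 379 and 327 to 415 CPM). The part of both lists in the levels of *Dst* and *Plec* was not tested.

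*Cd151* (chr7:141047256-141052572, plus strand) encodes a tetraspanin that associates with laminin-binding integrins. It was at 110.2, 133, 117 and 130.1 CPM without UVB and 101, 104, 99.3 and 102 CPM after UVB in males. In females the levels were 116, 113, 112 and 121 CPM without UVB and 113, 128, 106 and 111 CPM after UVB. The 4 UVB males lay within 99.3 to 104 CPM and below all no-UVB males, while the females of both groups overlapped. Its log2 fold change was -0.25 ± 0.06 in males, 0.841 times the level without UVB (edgeR adjusted p = 0.00703), called without each mouse in turn. In females it was -0.01 ± 0.07 (adjusted p = 0.960), and -0.069 without UVB female 2. *Cd151* overlaps *Polr2l* on the opposite strand, and the share of reads on the other strand was 0.276% for *Cd151* and at most 0.893% for any of the 9 genes.

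**Figure D2:**
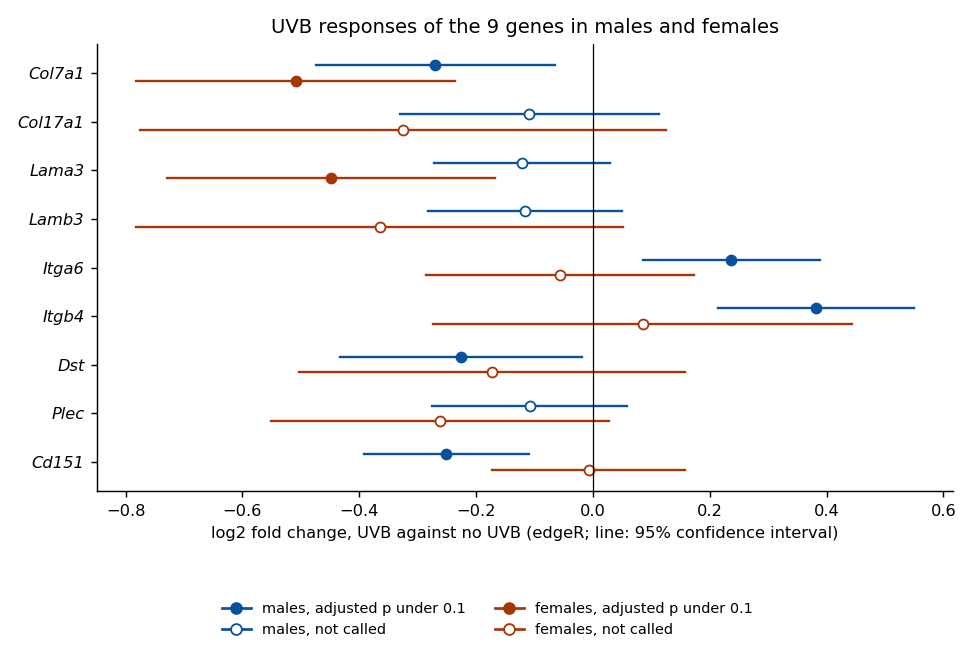
Log2 fold change of UVB against no UVB for the 9 genes (horizontal axis), in males (blue) and females (orange), with 95% confidence intervals as lines and filled points for genes called by edgeR. The integrin chains *Itga6* and *Itgb4* are called higher in males alone, and the interval of the female value spans 0 for each gene except *Col7a1* and *Lama3*.

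Whether males and females differed in these responses was tested directly, over all 16 mice. None of the 9 genes was called for a difference between the responses by edgeR, beside 7% of 17406 genes tested (2.75% more positive in males and 4.25% more negative). By unadjusted p under 0.05 the count was 2, *Cd151* and *Itga6*, beside 3625 of the 17406 genes, and DESeq2 called 0 of the 9. The largest differences were those of *Lama3*, at 0.31 ± 0.15 (male minus female log2 fold change, adjusted p = 0.247), *Itgb4* at 0.28 ± 0.19 (0.417), *Itga6* at 0.28 ± 0.13 (0.218) and *Cd151* at -0.26 ± 0.10 (0.141). *Itga6* was called when UVB female 3 was left out (adjusted p = 0.083). For 7 of the 9 genes the male value was the more positive, with a median difference of 0.23 against -0.02 over all genes. Without UVB female 2 the differences were 0.20 for *Lama3*, 0.15 for *Itgb4*, 0.22 for *Itga6* and -0.20 for *Cd151*, and that of *Itgb4* was 0.43 without UVB female 4. The median over the 9 genes was then 0.10, with 7 of the 9 more positive in males and none called. The intervals over all mice were wide, -0.12 to 0.69 for *Itgb4* and -0.30 to 0.71 for *Col17a1*.

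Without UVB, none of the 9 genes was called between males and females by edgeR, beside 11.8% of 17406 genes (7.21% higher in males and 4.58% lower). None of the 9 had an unadjusted p under 0.05, which 3857 of the 17406 genes had. DESeq2 called 0 of the 9 as well. The log2 difference of males against females lay between -0.04 (*Lamb3*) and 0.16 (*Itga6*), and the groups overlapped for all 9 genes, while they were apart for 13% of all genes. SEs of these differences were 0.07 to 0.17, so that absent calls do not show equal levels. After UVB, 5 of the 9 genes were called, 4 higher and 1 lower in males, beside 25.2% of all genes, 12.8% higher and 12.5% lower. *Itga6* was higher in UVB males by 0.44 ± 0.09 on the log2 scale (adjusted p = 0.00432), and all 4 UVB males lay above all 4 UVB females. This call held without each mouse in turn. *Lama3* at 0.32 ± 0.11 (adjusted p = 0.0482), *Col7a1* at 0.32 ± 0.12 (0.0702) and *Itgb4* at 0.39 ± 0.13 (0.0568) were also higher in UVB males, and *Cd151* was lower, at -0.18 ± 0.07 (0.0833). *Lama3*, *Itga6* and *Cd151* were the 3 genes whose groups did not overlap, as for 21.2% of all genes. Markers of several cell types differed between the same mice. Of the basal keratinocyte markers 2 of 4 were higher in UVB males (sums of 7332 to 10590 CPM in males and 3943 to 5964 CPM in females), as were 4 of 5 suprabasal markers (16852 to 24443 and 9271 to 12873 CPM) and 3 of 6 fibroblast markers (28385 to 39292 and 12113 to 21853 CPM). Lower in UVB males were 5 of 5 Schwann cell markers (233 to 316 and 327 to 415 CPM), 4 of 4 adipocyte markers (491 to 778 and 712 to 1365 CPM), 3 of 4 leukocyte markers, 1 of 6 muscle markers and 1 of 6 endothelial markers. Their part in the differences of the 9 genes was not tested.

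Apart from *Itga6*, each call between UVB males and UVB females was lost in some fits with 1 mouse left out, while the log2 difference ranged over 0.21 to 0.38 for *Lama3*, 0.26 to 0.38 for *Col7a1*, 0.26 to 0.52 for *Itgb4* and -0.21 to -0.12 for *Cd151*. Without UVB female 1, UVB female 2, UVB male 1 or UVB male 3, *Itga6* alone was called, and *Itga6* and *Lama3* without UVB male 2. *Cd151* was lost without any one of UVB females 1 and 2 and the UVB males, with an adjusted p of up to 0.249. It was also not called with DESeq2's size factors, with TMM without the 100 most abundant genes, by DESeq2's Wald test, or with every gene of at least 1 count kept. *Col7a1* was not called with upper quartile scaling (adjusted p = 0.104), and neither *Col7a1* (0.162) nor *Itgb4* (0.131) with every gene of at least 1 count kept. Upper quartile scaling moved the calls of all genes from 2222 higher and 2169 lower in males to 1659 and 2736.

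The partners of these genes in epidermal adhesion were examined as a list of 9 genes. In males 1 of these 9 rose and 6 fell, beside 29% of all genes higher and 30.5% lower. In females 0 rose and 2 fell (4 with all 16 mice in a single fit, 1 with every gene of at least 1 count kept and 0 to 2 with 1 mouse left out), beside 12.8% and 10.6% of all genes. The count lower was 0 without UVB female 1 or no-UVB female 2, and 1 without UVB female 2 or no-UVB female 1 or 3. The 2 were *Lama5* and *Bcam*. Both lost their call without UVB female 1 or 2 or no-UVB female 1 or 2. The 1 counted without UVB female 2 or no-UVB female 1 was thus another partner. *Lama5* was also lost without no-UVB female 3 or 4. The median log2 fold change of the partners was -0.16 in males and -0.18 in females. *Itga3*, the α chain of the laminin-binding integrin outside hemidesmosomes, rose in males by 0.53 ± 0.09 on the log2 scale (adjusted p = 0.00042). In females its value was 0.02 ± 0.23 (adjusted p = 0.966, 95% confidence interval -0.50 to 0.54). *Lamb2* and *Lamc1*, chains of laminins also made by dermal cells, fell in males, by 0.55 ± 0.07 (edgeR adjusted p = 6.8e-05) and 0.51 ± 0.08 (0.00038). *Bcam*, a laminin receptor, fell in both sexes, by 0.29 in males (adjusted p = 0.00285) and 0.31 in females (0.0606). The dystroglycan gene *Dag1* (-0.22, adjusted p = 0.0178), *Itgb1* (-0.16, 0.0642) and *Lamb1* (-0.16, 0.0989) were lower in males. *Lama5* fell in females (-0.24, adjusted p = 0.0772). *Fermt1*, the keratinocyte kindlin, was called in neither sex (0.02 in males, adjusted p = 0.830, and -0.31 in females, 0.201). Leaving out 1 mouse ended the call of *Lamb1* in 5 of 8 fits, of *Itgb1* in 4 of 8, of *Lama5* in 6 of 8 and of *Bcam* in females in 4 of 8. *Lamb1* in males was called in 2 of 8 other settings, and *Itgb1* in males (adjusted p = 0.169) and *Lama5* in females (0.119) were not called with every gene of at least 1 count kept.

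Genes of the wider basement membrane networks (type IV, XV and XVIII collagens, nidogens, perlecan, the Fras and Frem proteins and others) were examined as a further list. Of 22 tested, 20 fell in males, beside 30.5% of all genes, and 7 fell in females, beside 10.6% of all genes. In females the other 15 were not called, and 0 rose in either sex, with medians of -0.44 and -0.34 on the log2 scale. With 1 mouse left out the number lower in females was 7 to 11, the 11 being without UVB female 2, and 1 network gene was higher in females without UVB female 3 or no-UVB female 1. The largest fall in both sexes was that of *Col4a6*, a type IV collagen chain, at 26.6 to 33.9 CPM without UVB and 5.74 to 9.24 CPM after UVB in males, and at 24.1 to 35.0 and 4.98 to 9.62 CPM in females. Its log2 fold change was -2.08 ± 0.15 in males (edgeR adjusted p = 2.5e-06) and -1.91 ± 0.19 in females (adjusted p = 0.00033). *Col4a5*, whose chain assembles with that of *Col4a6*, fell by 1.13 ± 0.08 in males (edgeR adjusted p = 2.5e-06) and 0.93 ± 0.10 in females (0.0003).

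*Fras1* and *Frem2*, whose proteins lie beneath the epidermal basement membrane, also fell in both sexes. The log2 fold change of *Frem2* was -1.31 ± 0.15 in males (adjusted p = 6.9e-05) and -1.24 ± 0.13 in females (0.00027). That of *Fras1* was -1.28 ± 0.17 in males (adjusted p = 0.00011) and -1.02 ± 0.17 in females (0.00373). *Frem1* fell in males (-1.16 ± 0.13, adjusted p = 2.7e-05) and missed the threshold in females (-0.56 ± 0.21, 0.102). *Npnt*, which encodes nephronectin, fell in both sexes, by 0.55 in males (adjusted p = 0.00102) and 0.48 in females (0.00731). *Sparc*, a collagen-binding matrix protein gene, was at 10488 to 12838 CPM without UVB and 3788 to 5370.0 CPM after UVB in males, lower by 1.36 ± 0.14 in log2 terms (edgeR adjusted p = 1.6e-05). In females its value was 0.01 ± 0.17 (adjusted p = 0.971), and the responses differed by -1.38 ± 0.22 (0.00739). *Sparc* was at 2121 to 2728 CPM in no-UVB females, below every no-UVB male. Of 6 fibroblast markers, 5 fell in males, with their sum at 79065 to 86268 CPM without UVB and 28385 to 39292 CPM after UVB. In females 1 rose and 1 fell, at 19205 to 20539 and 12113 to 21853 CPM. No fibroblast marker had 3 counts or fewer throughout a group, and their part in the fall of the network genes was not tested.

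**Figure D3:**
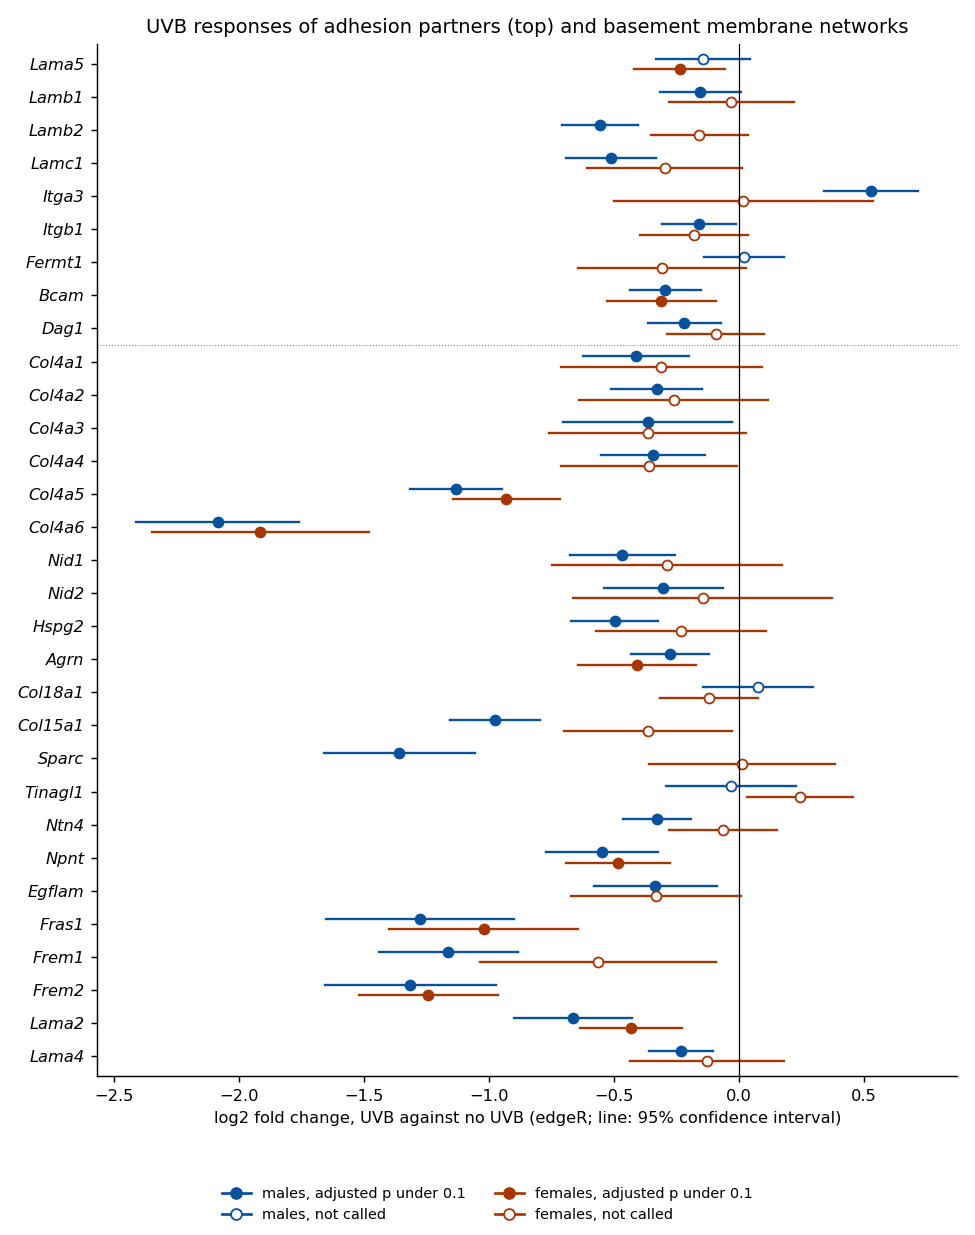
Log2 fold change of UVB against no UVB (horizontal axis) for the 9 adhesion partners (above the dotted line) and 22 basement membrane network genes, in males (blue) and females (orange), with 95% confidence intervals as lines and filled points for genes called by edgeR. Among the network genes 20 are called lower in males and 7 in females, and *Col4a6* lies farthest to the left in both sexes.

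Of 12 enzymes that cleave or process basement membrane proteins, 4 rose and 5 fell in males, beside 29% and 30.5% of all genes, and 1 rose and 3 fell in females, beside 12.8% and 10.6%. The 4 of 12 higher in males and the 1 of 12 higher in females were near the share of all genes. With 1 mouse left out, 1 to 4 rose and 4 to 6 fell in males, and 1 to 4 fell in females. In males 1 or 2 rose without any one of UVB males 1, 2 and 3 and no-UVB males 1 and 3, and in females 1 fell without any one of UVB females 1, 3 and 4 and no-UVB females 3 and 4. With upper quartile scaling 1 of the 12 rose in males, and 2 rose with every gene of at least 1 count kept or with all 16 mice in a single fit. In females 5 fell by DESeq2's Wald test and 6 in the single fit. *Mmp9*, a type IV collagenase gene, fell in both sexes, by 1.57 ± 0.13 in males (edgeR adjusted p = 3.8e-06) and 1.06 ± 0.15 in females (0.00170). *Bmp1*, the procollagen and laminin processing protease gene, fell in males (-0.48, adjusted p = 6.6e-05), as did *Tll1* (-0.40, 0.00936), *Plat* (-0.36, 0.0110) and *Mmp2* (-0.26, 0.0482). *Plau*, the urokinase gene, rose in males (0.48, adjusted p = 0.0775), as did *Adam17* (0.14, 0.0396) and *Adam10* (0.11, 0.0816), sheddase genes. *Mmp13* rose in males (1.24, adjusted p = 0.0442) at levels of at most 1.64 CPM. In females *Mmp3*, the stromelysin gene, rose (0.64, adjusted p = 0.0290), and *Plat* (-0.42, 0.0784) and *Adam9* (-0.28, 0.0953) fell. The calls of *Plau*, *Mmp13*, *Adam10* and *Mmp2* in males, and of *Plat* and *Adam9* in females, were each lost in 4 to 6 of 8 fits with 1 mouse left out.

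Markers of the basal layer itself did not move as a group. *Krt14*, a keratin of basal cells, rose in males, with 1108 to 2110.4 CPM without UVB and 3530.4 to 5684 CPM after UVB, a log2 fold change of 1.43 ± 0.23 (edgeR adjusted p = 0.00065). In females it rose, with 991 to 1553 and 1659 to 2241 CPM, by 0.47 ± 0.16 (adjusted p = 0.0801), a call lost in 5 of 8 fits with 1 mouse left out, with upper quartile scaling (0.101) and with all 16 mice in a single fit (0.129). *Krt15*, a keratin of quiescent basal and bulge cells, fell in both sexes, by 1.25 ± 0.13 in males (edgeR adjusted p = 2.6e-05) and 1.11 ± 0.24 in females (0.0120). *Krt5* (0.29 in males, adjusted p = 0.151, and -0.23 in females, 0.425) and *Trp63* (0.07, 0.698, and -0.21, 0.460) were not called. Of 5 markers of suprabasal keratinocytes 5 rose in males and 4 in females, with sums of 6027 to 8957 CPM without UVB and 16852 to 24443 CPM after UVB in males, and 5325 to 7965 and 9271 to 12873 CPM in females. The part of either marker list in the values of the 9 genes was not tested. Among other cells, 0 of 6 endothelial markers were called in either sex, 2 of 4 adipocyte markers fell in males and 0 were called in females, and 3 of 4 tested leukocyte markers fell in each sex, while the neutrophil marker *Ly6g* stayed at or under 3 counts in every mouse.

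Ratios between genes were compared within each mouse, since a ratio does not depend on the scaling of the library. Of 8 ratios tested in each sex, 16 tests in all, 6 were called at an adjusted p under 0.1 in an exact two-sided permutation test over the mice. Each of the 6 had the smallest p that 4 mice against 4 allow, 0.0286, and an adjusted p of 0.0762. With 1 mouse left out each of them still had the smallest p that the remaining mice allow, which was too large to pass after adjustment, so that leaving out mice did not test these calls. In males *Plec* fell against *Itgb4*, from 1.86 ± 0.03 to 1.37 ± 0.07 in mean log2 ratio of CPM (SD, n = 4). *Itga6* fell slightly against *Itgb4*, from -0.11 ± 0.04 to -0.26 ± 0.03, and *Itga3* rose against *Itga6*, from -1.83 ± 0.10 to -1.54 ± 0.05.

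The ratio of the laminin chains *Lama3* and *Lamb3* went from -0.64 ± 0.08 to -0.64 ± 0.08 in males and from -0.68 ± 0.22 to -0.76 ± 0.14 in females, with no call. Against the keratin gene *Krt14*, which itself rose, the ratios of both membrane genes fell in males, *Col17a1* from -0.64 ± 0.39 to -2.21 ± 0.27 and *Itgb4* from -2.84 ± 0.39 to -3.92 ± 0.27. At the level of single genes, *Col17a1* was not called in males and *Itgb4* rose. The basal keratin gene *Krt15* fell in both sexes, and no ratio to a basal marker other than *Krt14* was taken. In females *Col17a1* fell against *Krt14*, from -0.48 ± 0.10 to -1.33 ± 0.29. The ratio of *Itgb4* to *Krt14* in females, from -2.76 ± 0.22 to -3.19 ± 0.26, was not called (exact permutation adjusted p = 0.196), nor was that of *Plec* to *Itgb4* (adjusted p = 0.229). *Lama5* to *Lama3* and *Dst* to *Col17a1* were called in neither sex. Whether these changes in ratio differed between the sexes was not tested.

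**Figure D4:**
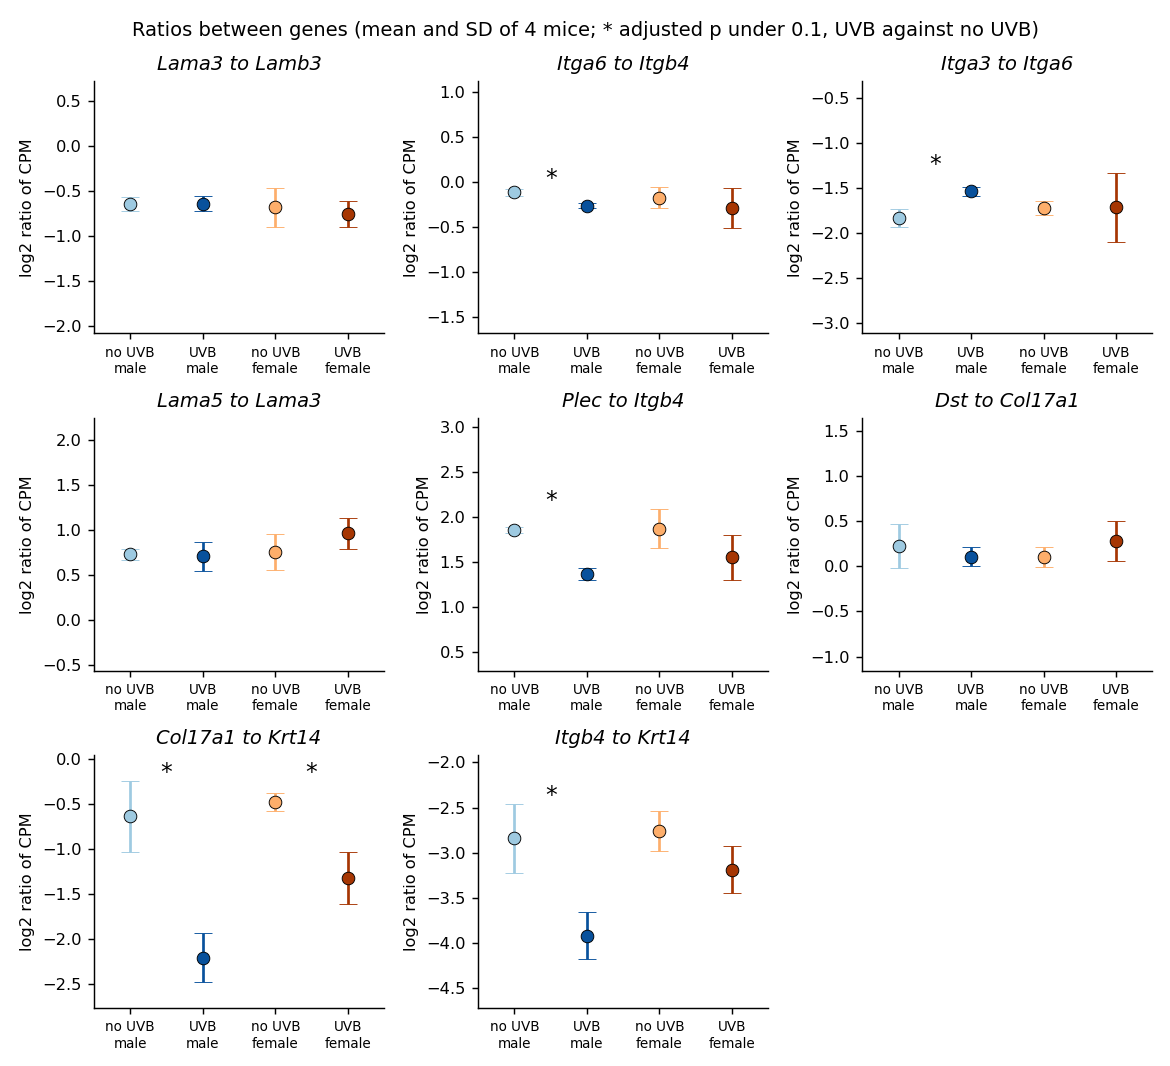
Log2 ratio of CPM for 8 pairs of genes (vertical axis, all spanning the same range), as the mean and SD of 4 mice per group, with an asterisk over each pair of groups called by the exact permutation test. *Plec* to *Itgb4* falls from 1.86 to 1.37 in males, and *Col17a1* to *Krt14* falls in both sexes, where *Krt14* itself rose and *Col17a1* was not called.

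To see which genes shared a pattern over the 16 mice, the log2 CPM of each gene was brought to a mean of 0 and an SD of 1, and the root mean square difference between profiles was taken over 12320 genes of at least 5 CPM on average. A value of 0 means the same profile, and the points share their libraries and groups, so that the distances are a description. *Col17a1* and *Lamb3* were each other's nearest gene, at 0.271 SD. *Ddr1*, a collagen receptor gene, was near both (0.317 and 0.312 SD) and also *Lama3* (0.476). The other nearest genes were *Tfap2b* for *Col17a1* (0.361) and *Marveld3* for *Lamb3* (0.305). *Lama3* was the nearest gene to *Col7a1* (0.465), followed by *Atp11a* and *Etv6*, and *Col7a1* was the second nearest to *Lama3*, after *Arhgef4* (0.355).

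*Itgb4* ranked 18 of 12319 genes by likeness to *Itga6*, and *Itga6* ranked 66 by likeness to *Itgb4*, at 0.509 SD. The nearest genes to *Itgb4* were *Nectin1*, *Foxk1* and *Ppp1r13l* (0.282 to 0.308 SD), and those to *Itga6* were *Rab22a*, *Yap1* and *Nectin1* (0.354 to 0.410). Nearest to *Dst* were *Thsd1*, *Camsap3* and *Sun1* (0.444 to 0.490), with *Lama3* at rank 32, and nearest to *Plec* were *Hdac4*, *Papln* and *Dag1* (0.514 to 0.566), with *Col7a1* at rank 8. *Cd151* was unlike the other 8 genes, which ranked 6278 to 11535 in likeness to it, and its nearest genes were *Fam149a*, *Amz2* and *Plac9* (0.409 to 0.429). Without UVB female 2, *Lamb3* remained nearest to *Col17a1*, now at 0.4001 SD, and *Col17a1* was the second nearest to *Lamb3*, after *Marveld3* (0.355). *Col7a1* and *Lama3* were then each other's nearest gene (0.402). In likeness to *Lama3*, *Col17a1* went from rank 10 to 172 and *Lamb3* from 8 to 116. *Itgb4* went to rank 63 by likeness to *Itga6*, and *Itga6* to rank 497 by likeness to *Itgb4*. This setting was chosen after the values were seen.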

How the data were processed

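Gene counts of 16 libraries of whole mouse dorsal skin were used. The authors aligned the reads of a directional poly(A) library preparation to GRCm39 with STAR and deposited its raw counts per gene. The column matching the strand of the library was used, and the 4 lines of each table that name no gene were left out, so that 70.1 to 79.2% of reads were on genes. Identifiers were matched to symbols in GENCODE (54749 of 55359). The 9 genes and the lists compared with them were chosen with earlier results of these data known.

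Genes were filtered with filterByExpr, scaled by TMM and tested with edgeR 4.0.16 (R 4.3.3) by its robust quasi-likelihood test, with Benjamini-Hochberg adjustment over all genes tested. The UVB responses were fitted within each sex, and the comparisons between sexes over all 16 mice. Genes were called at an adjusted p under 0.1. Printed CPM use TMM factors over all 16 mice, and log2 profiles used a prior count of 2. Ratios were tested by an exact two-sided permutation test, with Benjamini-Hochberg adjustment over the 16 tests reported. DESeq2 1.42.0, other scalings, filters and fits, and leaving out each mouse were alternatives. Named were all 9 genes, all partners and basal markers, of the network and enzyme lists the called genes (at most the 5 largest rises and 5 largest falls per sex, and those called for the difference between sexes), and the 3 nearest profiles of each gene. A gene of the partner list, and a ratio with it, are not reported here, and list counts and the adjustment of ratios leave them out. The tests were checked on simulated data. Between 858 and 34299 reads stood behind each value.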

Additional observations from a re-analysis of the deposited data

Results flagged for a closer look

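Among 36 groups of 4 mice tested for a value far from the others (9 genes in 4 groups), 1 stood out. *Itgb4* was at 259 CPM in UVB male 4, while the other UVB males were at 285 to 288 CPM, a gap past the 95% critical value of Dixon's test. Chance alone sets apart about 1 in 20 such groups.

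The UVB responses of males and females differed in 6 genes of the partner, network, enzyme and basal keratinocyte lists by edgeR's test over all 16 mice (male minus female log2 fold change), none of them among the 9 genes. They were 1 of 9 partner, 2 of 22 network, 2 of 12 enzyme and 1 of 4 basal keratinocyte genes, beside 7% of all 17406 genes tested. The difference was -0.41 for *Lamb2*, -0.63 for *Col15a1*, -1.38 for *Sparc*, 2.49 for *Mmp13*, 0.25 for *Adam10* and 0.95 for *Krt14*. *Mmp13* was at most 2.53 CPM in any mouse. With each mouse left out in turn, *Sparc* was called in 16 of 16 fits, *Lamb2* in 13, *Adam10* in 11, *Col15a1* in 10, *Mmp13* in 7 and *Krt14* in 5. With every gene of at least 1 count kept, *Col15a1* (adjusted p = 0.128), *Mmp13* (0.152), *Adam10* (0.251) and *Krt14* (0.239) were not called, and DESeq2 gave *Mmp13* no adjusted p. Among the markers of other cells, the responses also differed for 3 of 6 fibroblast, 3 of 5 Schwann cell and 4 of 6 skeletal muscle markers, all more negative in males, and for 1 of 5 suprabasal keratinocyte markers, more positive in males.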

How the results depend on the processing

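Of the 9 genes, *Col7a1*, *Itga6*, *Itgb4* and *Cd151* in males and *Col7a1* and *Lama3* in females kept their calls without each mouse in turn. Across those fits, 2 to 5 of the 9 were lower in males, 1 to 5 were higher and 0 to 1 lower in UVB males against UVB females, and 0 to 1 had a more positive response in males. The number of all genes with a more positive response in males ranged over 163 to 835 and with a more negative one over 298 to 1020. Of all genes, 762 to 1388 were higher and 430 to 943 lower in males than in females without UVB. After UVB 1322 to 2341 were higher and 1469 to 2350 lower in males than in females. In the UVB response of males 4399 to 4925 of all genes were lower.

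With upper quartile scaling 6 of the 9 were lower in males, and 4 were lower in females with all 16 mice in a single fit. Of all genes, upper quartile scaling called 6130 lower in males, against 5051. The single fit called 2649 higher and 2372 lower in females, against 2162 and 1787. Between UVB males and UVB females 0 of the 9 were lower with DESeq2's size factors, with TMM without the 100 most abundant genes, by DESeq2's Wald test and with every gene of at least 1 count kept. In the last case 2 of the 9 and 1434 of all genes were higher in UVB males. A more positive response in males was called for 478 genes, against 782 with TMM without the 100 most abundant genes, 1102 by DESeq2's Wald test and 229 with every gene of at least 1 count kept. The share of calls in the positive direction was 39.2%, against 55.6% and 54.0% in the first and second of these and 51.7% with DESeq2's size factors. Upper quartile scaling lowered the share of higher calls in females from 54.7% to 44.6%. The cause of these moves was not tested.

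Values that changed sign were near 0 and not called. *Cd151* in females was 0.0095 with counts taken without regard to strand, and the ratio of *Lama3* to *Lamb3* in males was -0.013. *Lama3* in males against females without UVB was -0.0013 with DESeq2's size factors, -0.013 with upper quartile scaling, -0.0073 with TMM without the 100 most abundant genes, -0.0012 by DESeq2's Wald test and -0.0020 with every gene of at least 1 count kept. With 1 mouse left out, the log2 fold change in females ranged over -0.14 to 0.0024 for *Itga6*, -0.049 to 0.21 for *Itgb4* and -0.069 to 0.027 for *Cd151*. The difference between the responses ranged over -0.16 to 0.041 for *Dst*. Males against females without UVB ranged over -0.096 to 0.087 for *Col17a1*, -0.086 to 0.065 for *Lama3* and -0.18 to 0.028 for *Lamb3*, and after UVB over -0.010 to 0.17 for *Dst*. The log2 ratio moved by -0.040 to 0.028 for *Lama3* to *Lamb3* and -0.097 to 0.031 for *Lama5* to *Lama3* in males, and by -0.13 to 0.15 for *Itga3* to *Itga6* in females.

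Replicate numbers were not taken to pair the mice. Same-numbered mice had correlations of -0.11 to 0.22 in their deviations, and 2 of 8 correlated best with their own number. Such values neither show nor exclude a pairing. With the replicate number as a block, 2 of the 9 were higher and 3 lower in males, 0 higher and 2 lower in females, and 5 higher and 1 lower in UVB males against UVB females, where *Plec* was gained at 0.23 (adjusted p = 0.0752). No call of the 9 was lost. Of all genes, the block gave 4680 higher and 4936 lower in males, and 1966 higher and 1514 lower in females. Between UVB males and UVB females it gave 2265 higher and 2215 lower in males. Outside the 9, the block ended the calls of *Adam10* in males and of *Bcam* and *Adam9* in females.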
